A study of Mus musculus with 8 samples.

Results

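Chemokine receptors steer the movement of macrophages and of the leukocytes that share a tissue with them. The genes Ccr1, Ccr2, Ccr3, Ccr7, Ccrl2, Cx3cr1, Cxcr2, Cxcr4 and Cxcr5 were described in peritoneal macrophages across 4 times of LPS and 2 genotypes. They are 9 of 20886 named genes on the array, each represented by its brightest probe over all arrays. The list is one of gene names, with no measured difference in its rule, but it was chosen with earlier results of these data known. Lipopolysaccharide (LPS), a component of the outer membrane of Gram-negative bacteria, activates macrophages through Toll-like receptor 4. FURIN is a proprotein convertase that cuts and so activates many secreted and membrane proteins.

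The KO cells came from mice of genotype LysMCre-fur(fl/fl) and the WT cells from their littermates, all C57BL/6, and were left untreated or stimulated for 1, 4 or 24 h with LPS at 1 μg/ml. LysMCre recombines in macrophages and also in granulocytes. Cells were washed from the cavity, and those that still adhered after 24 h of culture were used. The methods of the study instead name 1 h of incubation before stimulation. Each time had 2 arrays with KO and WT RNA of that time in different dyes, so every genotype and time has 2 samples, named biological replicates by the submitters. On the arrays of replicate 1 KO RNA carried Cy5, and on those of replicate 2 it carried Cy3. The growth protocol names 4 h of stimulation for every sample, and the times given here come from the titles. The 4 arrays of untreated cells and 1 h lay in one row of the slide and those of 4 and 24 h in the other, so row and time cannot be told apart in comparisons of 4 or 24 h with untreated cells. The age of the mice and the animals behind each RNA are not given in the sources used here, and the p-values measure the spread between these samples.

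Between 43.8% and 51.3% of the gene spots of a channel were well above background, and 2 arrays a time set the precision. Furin, the targeted gene, had log2 KO/WT ratios between -0.85 and -0.55 on the arrays of untreated cells, 1 h and 24 h, but 0.0012 and 0.33 on the arrays of 4 h. Whether its probe lies in the deleted part of the gene is not given in the sources used here. At 4 h the RNA labelled KO is therefore named by its label alone, although Lyz2, the gene that carries the Cre, was lower in the KO channel on all 8 arrays. The defining markers of macrophages were present, with 7 of 7 measured markers well above background in every group. Markers of B cells were present too, with 9 of 9 well above background in every group.

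Chemokine receptors are 7-transmembrane proteins that couple to inhibitory G proteins and guide cells along gradients of chemokines. CCR1 and CCR2 bind inflammatory CC chemokines and CX3CR1 binds fractalkine, and all 3 are receptors of the monocyte lineage. CCR7 and CXCR5 guide lymphocytes and dendritic cells within lymphoid organs, CCR3 is best known from eosinophils and CXCR2 from neutrophils. CXCR4 binds CXCL12, while CCRL2 is an atypical receptor that presents chemerin and does not signal through G proteins.

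Upstream sequences were available for 7 of the 9 genes, from RefSeq on GRCm38.p6. The 250 bases before the start are shown, 5′ to 3′ on the strand of the gene, for Ccrl2 and Cxcr4, which had the largest measured changes with LPS, and for Ccr1 and Ccr3, which had their highest values at 24 h. Capitals mark matches on either strand to 4 motifs: kappa-B (GGGA, any pair of bases, TTCC), AP-1 (TGANTCA), the interferon-stimulated response element (TTTC, any pair of bases, TTTC) and the core of PU.1 (GAGGAA), a factor that defines the myeloid lineage. The positions are chr9:111057519-111057768 (minus strand) for the outermost of the starts listed for Ccrl2, chr1:128592300-128592549 (minus strand) for Cxcr4, chr9:123968693-123968942 (minus strand) for Ccr1 and chr9:124021721-124021970 (plus strand) for Ccr3.
Ccrl2: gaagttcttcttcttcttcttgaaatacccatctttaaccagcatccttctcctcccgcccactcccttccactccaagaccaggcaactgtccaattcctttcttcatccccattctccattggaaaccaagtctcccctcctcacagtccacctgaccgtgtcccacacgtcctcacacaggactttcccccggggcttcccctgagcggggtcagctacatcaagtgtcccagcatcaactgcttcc
Cxcr4: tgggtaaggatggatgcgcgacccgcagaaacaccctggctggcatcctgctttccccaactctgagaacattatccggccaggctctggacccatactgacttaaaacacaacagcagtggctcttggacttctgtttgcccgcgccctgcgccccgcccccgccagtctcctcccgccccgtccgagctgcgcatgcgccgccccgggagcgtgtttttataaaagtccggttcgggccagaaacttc
Ccr1: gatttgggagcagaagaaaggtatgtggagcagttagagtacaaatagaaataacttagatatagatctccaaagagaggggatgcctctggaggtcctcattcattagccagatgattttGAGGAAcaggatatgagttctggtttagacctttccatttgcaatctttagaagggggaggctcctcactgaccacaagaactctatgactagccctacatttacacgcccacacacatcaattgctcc
Ccr3: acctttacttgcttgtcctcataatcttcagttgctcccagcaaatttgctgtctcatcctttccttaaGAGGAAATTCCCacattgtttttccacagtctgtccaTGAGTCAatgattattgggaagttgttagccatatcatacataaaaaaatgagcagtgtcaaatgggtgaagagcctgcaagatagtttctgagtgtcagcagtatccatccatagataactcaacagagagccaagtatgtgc
The upstream bases of Ccr3 held a kappa-B match beginning 179 bases before the start, which overlaps a PU.1 core match beginning at 181, and an AP-1 match at 144. Those of Ccr1 held a PU.1 core match at 129. Cxcr2 had a PU.1 core match at 81. The 4 motifs, as spelled above, had no match in the windows of Ccr2, Ccrl2, Cx3cr1 and Cxcr4. Looser spellings of the motifs were not searched. Of 32851 promoters in the same table, 1.21% held the kappa-B letters, 6.75% AP-1, 2.98% the interferon-stimulated response element and 23.3% the PU.1 core. A match is a description of letters and not a binding site.

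LPS changed 8 of the 9 receptors at one or more times, and each one that passed the test in both genotypes at the same time moved the same way in both. Ccrl2, Ccr7 and Cxcr5 rose within 4 h, Cxcr4, Cx3cr1 and Ccr2 fell by 4 h, and Ccr1 and Ccr3 were highest at 24 h. In WT cells 2 of 9 members were higher and 1 lower after 1 h (limma separate-channel analysis, adjusted p under 0.05), where 3.39% of all genes and transcripts tested were higher and 5.13% lower. After 4 h 3 were higher and 3 lower, against 15.5% and 19.3% of all features. After 24 h 2 were higher and 4 lower, against 13.5% and 17% of all features. In KO cells the counts were 3 higher and 1 lower after 1 h (3.1% and 4.38% of all features), 3 and 4 after 4 h (16.2% and 19.8%), and 2 and 4 after 24 h (12.7% and 16%). The median log2 change of the 9 members in WT was -0.04, -0.23 and -0.15 at 1, 4 and 24 h, where the median over all features was -0.02, -0.00091 and -0.02. In KO cells the medians of the members were -0.08, -0.29 and -0.14, and those of all features -0.02, 0.0014 and -0.02. At 4 and 24 h in WT and at 24 h in KO the median gene was Cxcr2, and at 4 h in KO it was Ccr3, both not well above background then, so these medians describe no measured change. The 3 comparisons of a genotype share its untreated channels. In RNA from a mixed culture, fewer cells of a type and less RNA per cell cannot be told apart.

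Ccrl2 had the largest measured change of the 9 genes, and in WT it was back at its starting level by 24 h. In WT its log2 intensity was 9.95 and 10.11 in untreated cells, 14.68 and 14.64 after 1 h, 14.02 and 14.09 after 4 h, and 10.05 and 10.11 after 24 h. The KO values were 10.07 and 9.52, then 14.55 and 14.50, then 14.40 and 13.81, then 10.64 and 10.32. Both genotypes were high at 1 and 4 h, with no overlap with untreated cells or 24 h. The change at 1 h was 4.63 log2 units in WT (24.8-fold, standard error 0.19, limma adjusted p = 4.1e-09) and 4.73 in KO (26.6-fold, standard error 0.19, limma adjusted p = 4.1e-09). At 4 h it was 4.02 in WT (16.3-fold) and 4.31 in KO (19.9-fold). At 24 h WT cells differed from untreated cells by 0.05 (limma adjusted p = 0.905), and KO cells were higher by 0.69 (limma adjusted p = 0.0151). That last call was lost without untreated replicate 2 (0.41, limma adjusted p = 0.204) or without 24 h replicate 1 (0.52, limma adjusted p = 0.171). The difference between the genotypes in this change was 0.64 with a 95% confidence interval from 0.0013 to 1.27, and it did not pass the adjustment (limma adjusted p = 0.9999).

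Cxcr4 had the largest measured fall of the 9 genes. Its log2 intensity in WT was 11.52 and 11.68 in untreated cells, 10.84 and 11.08 after 1 h, 7.73 and 7.64 after 4 h, and 9.58 and 9.38 after 24 h. The KO channels read 11.65 and 11.50, then 10.82 and 10.74, then 7.46 and 7.89, then 9.08 and 9.33. The 4 times did not overlap in either genotype. After 4 h Cxcr4 was 15.1-fold lower in WT (log2 change -3.92, standard error 0.15, limma adjusted p = 2.2e-10) and 14.9-fold lower in KO (log2 change -3.90, standard error 0.15, limma adjusted p = 2.4e-10). After 24 h it was 4.36-fold lower than in untreated cells in WT and 5.17-fold lower in KO. The change at 1 h was smaller, at -0.64 in WT (limma adjusted p = 0.0157) and -0.80 in KO (limma adjusted p = 0.00447). The 1 h call of WT was lost without untreated replicate 1, untreated replicate 2 or 1 h replicate 1 (limma adjusted p from 0.0557 to 0.166), and that of KO without untreated replicate 1 (limma adjusted p = 0.0651) or 1 h replicate 2 (limma adjusted p = 0.0503).

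The rebound of Cxcr4 and the return of Ccrl2 were tested by setting 24 h against 4 h, a comparison chosen after the values were seen. Cxcr4 was 3.47-fold higher at 24 h than at 4 h in WT (log2 change 1.80, standard error 0.15, limma adjusted p = 7.3e-07) and 2.89-fold higher in KO (log2 change 1.53, standard error 0.15, limma adjusted p = 3.0e-06). Ccrl2 was 15.7-fold lower in WT and 12.4-fold lower in KO. In both genotypes 3 members were higher at 24 h than at 4 h (Ccr1, Ccr3 and Cxcr4) and 3 lower (Ccr7, Ccrl2 and Cxcr5). Of all features, 15.1% were higher and 14.6% lower in WT, and 15.7% higher and 15.1% lower in KO.

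Cx3cr1, the receptor of fractalkine and a marker of monocyte-derived cells, fell below the detection level. In WT its log2 intensity was 7.89 and 8.76 in untreated cells, 7.41 and 8.37 after 1 h, 6.45 and 6.30 after 4 h, and 6.71 and 6.41 after 24 h. KO cells had 9.13 and 8.27, then 8.64 and 7.73, then 6.73 and 6.15, then 6.58 and 6.52. All channels of untreated cells and 1 h were well above background, and of the later channels only WT replicate 1 at 24 h was. The drop at 4 h was at least 3.57-fold in WT (limma adjusted p = 0.00128) and at least 4.20-fold in KO (limma adjusted p = 0.000377), where the dim group is set to the lowest signal well above background on its arrays or to its own signal if that is higher. These bounds were computed on levels normalized by loess and Aquantile, and where the fold of the fit was smaller, as for 2 genes below, that fold is given as a value and not as a bound. At 24 h Cx3cr1 was at least 4.40-fold lower in KO (limma adjusted p = 0.000785) and had a log2 change of -1.76 in WT (standard error 0.40, limma adjusted p = 0.0033). The change at 1 h was -0.43 in WT (limma adjusted p = 0.693) and -0.51 in KO (limma adjusted p = 0.608).

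Each of the 3 probes of Cx3cr1 had a lower mean at 4 h than in untreated cells in both genotypes. The replicates of Cx3cr1 were far apart before LPS. In untreated cells the KO/WT ratio was 1.24 on replicate 1 and -0.49 on replicate 2, and after 1 h it was 1.23 and -0.64, so the genotypes changed places between the replicates. Whether the animals, the cells collected or the dye were behind this was not tested, since replicate and dye orientation are one factor here.

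Ccr2, the receptor of CCL2 through which monocytes leave the bone marrow, was dim. In WT its log2 intensity was 6.84 and 6.89 in untreated cells and 6.79 and 6.81 after 1 h, and in KO it was 7.46 and 7.14, then 7.18 and 7.002. In both genotypes it was not well above background at 4 and 24 h, with values from 6.23 to 6.64. Against untreated cells it was at least 1.25-fold lower in WT at 4 h (limma adjusted p = 0.011) and at least 1.32-fold lower at 24 h (limma adjusted p = 0.00199). In KO the fold of the fit, which is no bound, was 1.65-fold lower at 4 h (limma adjusted p = 0.000315) and 1.81-fold lower at 24 h (limma adjusted p = 0.000106). The call at 4 h in WT was lost without 4 h replicate 2 (log2 change -0.30, limma adjusted p = 0.143). Ligands of CCR2 moved the other way: Ccl2 rose by 6.04 log2 units in WT and 4.58 in KO at 4 h, and Ccl7 by 6.38 and 5.02.

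Ccr7, which guides activated dendritic cells and lymphocytes to lymph nodes, rose and then fell under its starting level. Its log2 intensity in WT cells was 12.03 and 12.69 in untreated cells, 12.67 and 13.32 after 1 h, 13.50 and 14.16 after 4 h, and 11.45 and 11.44 after 24 h. KO levels were 12.55 and 12.73, then 13.82 and 13.54, then 13.80 and 13.95, then 11.86 and 11.99. In WT the channels of untreated cells and 1 h overlapped, and in KO they did not. At 4 h Ccr7 was 2.77-fold higher in WT (log2 change 1.47, standard error 0.25, limma adjusted p = 0.000273) and 2.35-fold higher in KO (1.23, standard error 0.25, limma adjusted p = 0.00117). At 1 h the change was 0.63 in WT (limma adjusted p = 0.172, or 0.0241 with the replicate block) and 1.04 in KO (limma adjusted p = 0.0205). At 24 h it was -0.92 in WT (limma adjusted p = 0.0112) and -0.71 in KO (limma adjusted p = 0.0463). The calls at 24 h rested on few channels: that of WT was lost without untreated replicate 2 (-0.60, limma adjusted p = 0.173) or either array of 24 h (limma adjusted p = 0.0665 and 0.0682), and that of KO without any 1 of the 4 arrays of untreated cells and 24 h (limma adjusted p from 0.0612 to 0.22). The KO call was also lost with no background correction (limma adjusted p = 0.0509) and with all probes of each gene averaged in the fit (limma adjusted p = 0.0554; Ccr7 itself has 1 probe). The 1 h call of KO was lost without untreated replicate 1 (limma adjusted p = 0.109) or 1 h replicate 1 (limma adjusted p = 0.101). Normalized within arrays only, the changes at 24 h were -0.64 in WT (limma adjusted p = 0.07) and -0.41 in KO (limma adjusted p = 0.298).

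Cxcr5, the receptor of CXCL13 that places B cells and follicular T cells in follicles, rose early and stayed high at 4 h. WT log2 intensities of Cxcr5 were 11.69 and 12.48 in untreated cells, 13.25 and 13.94 after 1 h, 13.86 and 14.23 after 4 h, and 12.68 and 12.66 after 24 h. The same times gave KO values of 12.02 and 12.51, then 13.77 and 14.04, then 13.67 and 14.10, then 12.77 and 12.90. The channels of 1 and 4 h were higher than those of untreated cells in both genotypes, with no overlap. The change at 1 h was 1.51 in WT (2.86-fold, standard error 0.26, limma adjusted p = 0.00182) and 1.64 in KO (3.12-fold, standard error 0.26, limma adjusted p = 0.00122). At 4 h it was 1.96 in WT (3.89-fold) and 1.62 in KO (3.07-fold). At 24 h it was 0.59 in WT (limma adjusted p = 0.116, or 0.00827 with the replicate block) and 0.57 in KO (limma adjusted p = 0.134, or 0.0106 with the block). Both were called without untreated replicate 2, at 1.00 in WT (limma adjusted p = 0.014) and 0.82 in KO (limma adjusted p = 0.0395), and when normalized within arrays only, at 0.87 and 0.89 (limma adjusted p = 0.00951 and 0.009). The call of 24 h against 4 h in KO was lost without 4 h replicate 2 (limma adjusted p = 0.076) or 24 h replicate 1 (limma adjusted p = 0.0602).

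Cxcr5 and Ccr7 are also genes of B cells, whose markers were measured in the same RNA. The summed intensity of 9 B cell markers in WT was between 72557 and 94573 in untreated cells, between 69172 and 92760 after 1 h, between 38054 and 45844 after 4 h, and between 44026 and 46613 after 24 h. The sums in KO were between 81372 and 117450, then 106108 and 116420, then 29601 and 44191, then 47417 and 53864. At 1 h, when Cxcr5 had risen, 0 of the 9 passed the test in either genotype, or 0 in WT and 2 in KO with the replicate block. At 4 h the markers split: 2 were higher and 4 lower in WT, and 2 higher and 6 lower in KO. Cd79b, a chain of the B cell antigen receptor, changed by -3.04 and -3.52 and Fcrla by -2.86 and -3.18. Markers of dendritic cells, which also use CCR7, moved as well: of 8, 5 were higher and 2 lower at 4 h in both genotypes, and 3 higher and 2 lower at 24 h. Their summed intensity in WT was between 3860 and 7502 in untreated cells, 3673 and 7398 after 1 h, 4243 and 6073 after 4 h, and 2067 and 2180 after 24 h. In KO cells these sums were between 4853 and 6719, then 4928 and 5979, then 5658 and 5956, then 2216 and 2446. The part of B cells and dendritic cells in the changes of Cxcr5 and Ccr7 was not tested.

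**Figure D1:**
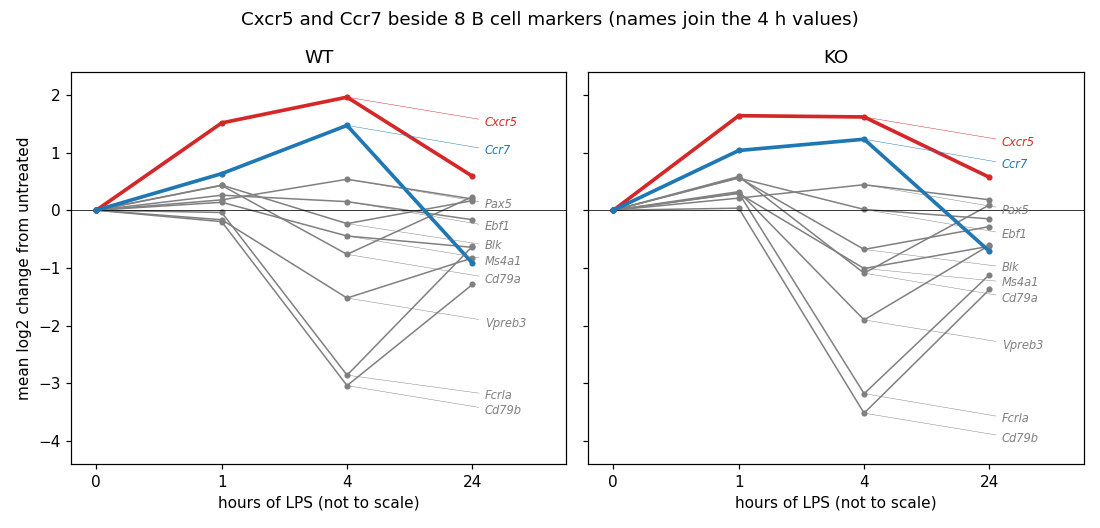
Mean log2 change from untreated cells (y axis) by hours of LPS (x axis, not to scale) for Cxcr5 (red), Ccr7 (blue) and 8 of the B cell markers (grey) in WT and KO, 2 replicates each. At 4 h Cxcr5 and Ccr7 lie above all 8 markers shown, of which Cd79b is lowest at -3.04 in WT and -3.52 in KO.

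Ccr1, a receptor of CCL3 and CCL5 on monocytes and macrophages, was well above background in all 16 channels and had its highest values at 24 h. WT log2 intensities of Ccr1 were 7.48 and 7.30 in untreated cells, 7.71 and 6.98 after 1 h, 7.30 and 6.78 after 4 h, and 8.57 and 8.28 after 24 h. KO cells gave 7.99 and 7.92, then 7.92 and 7.84, then 7.46 and 7.30, then 8.28 and 8.45. In untreated cells both KO channels were above both WT channels, and at 24 h the genotypes overlapped. The change at 24 h was 1.03 in WT (2.05-fold, standard error 0.21, limma adjusted p = 0.00147) and 0.41 in KO (standard error 0.21, limma adjusted p = 0.183, or 0.0212 with the replicate block). The difference between these changes was -0.62, with a 95% confidence interval from -1.18 to -0.07, and it did not pass the adjustment (limma adjusted p = 0.9999, or 0.168 with the block). At 4 h the change was -0.35 in WT (limma adjusted p = 0.245, or 0.0415 with the block) and -0.57 in KO (limma adjusted p = 0.0458). The KO call at 4 h was lost without either array of untreated cells, of 4 h or of 24 h (limma adjusted p up to 0.182), and with all probes of each gene averaged (limma adjusted p = 0.0521). Normalized within arrays only, the change in WT at 4 h was called, at -0.59 (limma adjusted p = 0.0277).

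Ccr3, the eotaxin receptor, was dim, with 10 of 16 channels well above background. WT log2 intensities of Ccr3 were 6.73 and 6.39 in untreated cells, 6.89 and 6.61 after 1 h, 6.56 and 6.50 after 4 h, and 7.01 and 7.46 after 24 h. KO readings were 6.65 and 6.69, then 6.98 and 6.93, then 6.36 and 6.41, then 7.57 and 7.28. Untreated WT cells were well above background on 1 of 2 arrays, and no channel of 4 h was. At 24 h all 4 channels were above those of untreated cells, by 0.67 in WT (1.59-fold, limma adjusted p = 0.00466) and 0.75 in KO (1.68-fold, limma adjusted p = 0.00225). The WT call was lost without untreated replicate 2 (0.49, limma adjusted p = 0.085) or without 24 h replicate 2 (0.45, limma adjusted p = 0.0594). Of 7 markers of eosinophils, none was higher at 24 h and 3 were lower in either genotype. Of these markers, 5 were not well above background on either array of 24 h. Their summed intensity was between 2127 and 2775 in untreated WT cells and between 2158 and 2251 at 24 h, and in KO between 2492 and 2627 and between 2044 and 2496. The part of eosinophils in the change of Ccr3 was not tested.

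Cxcr2, the receptor of the neutrophil chemokines, was well above background in 0 of 16 channels, with log2 intensities from 5.96 to 6.40. No level or change of Cxcr2 was therefore measured. Of 8 markers of neutrophils, 4 were well above background on both arrays in every group. Ligands of CXCR2 rose, with Cxcl1 up by 6.85 log2 units in WT and 6.01 in KO at 1 h and Cxcl2 by 6.05 and 4.94.

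**Figure D2:**
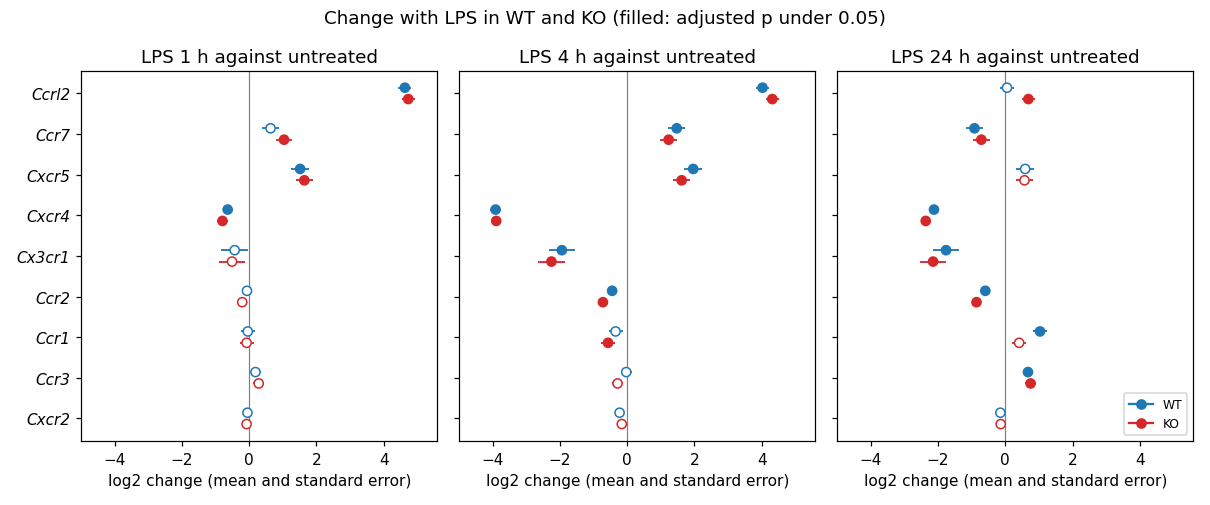
Change in log2 intensity from untreated cells (x axis, mean and standard error of the separate-channel fit, 2 replicates a group) for each receptor (y axis) after 1, 4 and 24 h of LPS in WT (blue) and KO (red), filled where the adjusted p was under 0.05. WT and KO points lie side by side for most genes, and Ccrl2 at 1 h (4.63 and 4.73) and Cxcr4 at 4 h (-3.92 and -3.90) lie farthest from 0.

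The question of the study is what FURIN does in macrophages, and no member differed between KO and WT past the threshold. The share of all features called in these comparisons was small as well: 0% in untreated cells, 0% at 1 h, 0.0135% at 4 h, 0.0244% at 24 h and 0.566% for the mean over the 4 times. Without adjustment, 2 members had p under 0.05 in untreated cells (Ccr1 and Ccr2), 4 at 1 h (these, Ccr7 and Cxcr5), 0 at 4 h, 0 at 24 h and 3 for the mean over times (Ccr1, Ccr2 and Ccr7). Of all 36947 features, 2134 had p under 0.05 in untreated cells and 2025 at 1 h. The number was 1588 at 4 h, 1266 at 24 h and 3940 for the mean over times. By the methods' t-test 1 member had an unadjusted p under the threshold in untreated cells, 1 at 1 h, 0 at 4 h and 1 at 24 h (Ccr1, Ccrl2 and Ccr7 in turn), and 0 remained after Benjamini-Hochberg adjustment. By that test 1694 of 36947 features had an unadjusted p under the threshold in untreated cells and 1753 of 36931 at 1 h. The number was 1128 of 36947 at 4 h and 1513 of 36943 at 24 h. The same-numbered samples deviated together, so the model was refitted with a replicate block, which here is also the dye term. It called Ccr1 in untreated cells, where it called 1.06% of all features, and Ccr1, Ccr2 and Ccr7 for the mean over times, where it called 5.99%. It called no member at 1 h (0.574% of all features), 4 h (0.566%) or 24 h (0.585%). The median log2 ratio of the 9 members was 0.18 in untreated cells, 0.29 at 1 h, 0.04 at 4 h, 0.16 at 24 h and 0.12 for the mean, where the median of all features was 0.00080, -0.0039, -0.00070, 0.0037 and 0.00035. The members' medians include Cxcr2, which no channel measured above background, and Ccr2, Ccr3 and Cx3cr1 at times when their channels were not, so they describe no measured difference of the group.

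Ccr2 was higher in KO on the 4 arrays of untreated cells and 1 h, where both channels were well above background. Its log2 ratios were 0.62 and 0.25 in untreated cells, then 0.39 and 0.19 at 1 h, then 0.07 and 0.25 at 4 h, then 0.22 and 0.12 at 24 h. At 4 and 24 h neither channel was well above background, so those ratios, though above 0, do not measure a direction. The mean over all 8 arrays, these included, was 0.26 (standard error 0.06, limma adjusted p = 0.103, or 0.0125 with the replicate block). Markers of small peritoneal macrophages and monocytes, the cells that carry CCR2 in the cavity, had a median mean ratio of 0.08 over 7 measured genes, of which 1 was higher in KO, or 2 called with the block.

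Ccr1 was higher in KO on 7 of 8 arrays. Its ratios were 0.51 and 0.61 in untreated cells, then 0.20 and 0.85 at 1 h, then 0.16 and 0.52 at 4 h, then -0.29 and 0.17 at 24 h. The ratio in untreated cells was 0.56 (1.48-fold, standard error 0.17, 95% confidence interval 0.17 to 0.96), with a limma adjusted p of 0.535, or 0.0295 with the block. The mean over times was 0.34 (standard error 0.09, limma adjusted p = 0.149, or 0.00332 with the block).

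Ccr7 was higher in KO on 7 of 8 arrays too, with ratios of 0.52 and 0.04 in untreated cells, then 1.15 and 0.21 at 1 h, then 0.30 and -0.21 at 4 h, then 0.42 and 0.56 at 24 h. The mean was 0.37 (standard error 0.11, limma adjusted p = 0.21, or 0.0119 with the block). The B cell markers had a median mean ratio of 0.13 (0 of 9 called, or 2 with the block), and their summed intensity in KO was above that in WT at 1 and 24 h and overlapped it in untreated cells and at 4 h. Markers of T and NK cells had a median mean ratio of 0.22 (0 of 8 called, or 3 with the block) and those of mast cells 0.47 (0 of 8 called, or 6 with the block). Of the markers of large peritoneal macrophages 2 of 8 were higher in KO for the mean over times, Cd5l at 0.76 and Icam2 at 0.34 (4 called with the block). Of the markers of macrophages 2 of 7 were lower, Csf1r at -0.40 and Lyz2, which carries the Cre, at -1.16 (4 called with the block). The part of these cells in the ratios of Ccr1, Ccr2 and Ccr7 was not tested.

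**Figure D3:**
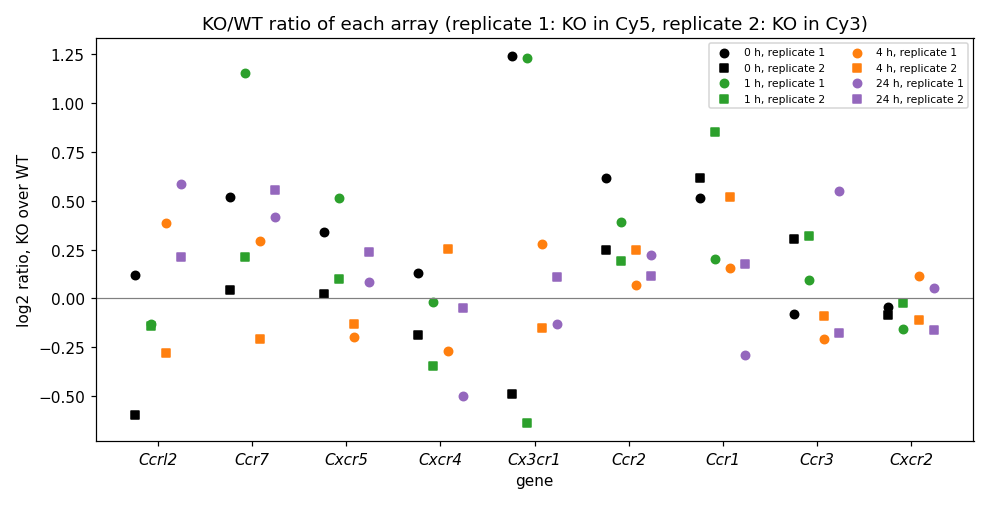
Log2 ratio of KO to WT on each of the 8 arrays (y axis) for each receptor (x axis), coloured by hours of LPS, with circles for replicate 1 (KO in Cy5) and squares for replicate 2 (KO in Cy3). All 8 points of Ccr2 lie above 0, between 0.07 and 0.62, and those of Cx3cr1 range from -0.64 to 1.24 with the 2 replicates on opposite sides of 0 in untreated cells and at 1 h.

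The other members had mean ratios over the 4 times from -0.12 for Cxcr4 to 0.18 for Cx3cr1. For Cxcr4 the 95% confidence interval of this mean was -0.31 to 0.06, for Ccrl2 it was -0.20 to 0.24 around 0.02, and for Cxcr5 it was -0.02 to 0.26 around 0.12. For Cx3cr1 it was wide, at -0.33 to 0.69, and the arrays of 4 and 24 h in that mean had 7 of 8 channels not well above background. The difference between KO and WT in the response to LPS ranged over the 9 members from -0.16 to 0.40 at 1 h, from -0.34 to 0.29 at 4 h and from -0.62 (Ccr1) to 0.64 (Ccrl2) at 24 h. None passed the test, and 0% of all features were called at any of these times, or 0%, 0.0325% and 0.211% with the block. Without adjustment 2 members, Ccr1 and Ccrl2, had p under 0.05 at 24 h and none at 1 or 4 h. Of all 36947 features, 512 had p under 0.05 at 1 h, 1071 at 4 h and 1231 at 24 h. An interval that includes 0 does not show that the genotypes respond alike.

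Many ligands of these receptors rose with LPS. Of 21 measured ligands of 22 listed, 9 were higher and 0 lower at 1 h, 13 higher and 3 lower at 4 h, and 11 higher and 7 lower at 24 h in WT. In KO the counts were 9 and 0, 13 and 3, and 12 and 6. Their median log2 change in WT was 0.38, 1.24 and 0.86 at the 3 times. Of the listed ligands Cxcl1 had the largest increase at 1 h and Ccl7 at 24 h, at 8.91 in WT and 6.70 in KO. The next 4 genes are named as ligands of members and were chosen after their values were seen. Cxcl12, the ligand of CXCR4, changed by -1.20 at 4 h and -1.99 at 24 h in WT, and by -1.79 and -2.31 in KO. Cxcl13, the ligand of CXCR5, changed by -1.13 at 4 h in WT, which did not pass the test, and fell by 1.59 at 24 h. Cx3cl1, which encodes fractalkine, rose by 1.24 in WT and 1.49 in KO at 4 h, when Cx3cr1 was not well above background. The ligands of CCR7 were represented by Ccl19 alone, which rose by 0.83 at 4 h in WT and 0.84 in KO. Between the genotypes, 1 ligand passed for the mean over times: Ccl2, which was higher in KO (0.72, limma adjusted p = 0.0269). With the replicate block 6 ligands passed for the mean, and 3, 2, 0 and 1 in untreated cells and at 1, 4 and 24 h.

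Another 15 chemokine receptors were measured. In WT 0 were higher or lower at 1 h, 1 was higher and 5 lower at 4 h, and 2 were higher and 3 lower at 24 h. In KO the counts were 1 and 0, 1 and 6, and 1 and 4. Ackr2, a scavenger of inflammatory CC chemokines, changed most at 4 h, at least 3.78-fold lower in WT and, by the fit and not as a bound, 5.62-fold lower in KO. Ccr6 and Cxcr3 fell at 4 h by 1.82 and 1.33 in WT, and Ccr8 rose by 0.94. Between the genotypes 0 passed for the mean over times, or 4 with the replicate block.

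Several members are neighbours in the mouse genome. On chromosome 9 the protein-coding genes Cxcr6, Xcr1, Ccr1, Ccr1l1, Ccr3 and Ccr2 follow each other in this order in the reference table, and Cx3cr1 lies beside Ccr8. At 24 h in WT, Ccr1l1 rose by 1.18 (limma adjusted p = 0.00303), beside the rises of Ccr1 and Ccr3 and the fall of Ccr2. In KO the change of Ccr1l1 was 0.53 (limma adjusted p = 0.175). Ccr1l1 is a close relative of Ccr1, and how far their probes share signal was not tested. At 4 h Ccr8 rose while its neighbour Cx3cr1 fell in both genotypes.

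Of 24 genes for G proteins, receptor kinases, arrestins and RGS proteins, which relay or end the signal of chemokine receptors, more fell than rose. In WT 2 were higher and 3 lower at 1 h, 3 higher and 13 lower at 4 h, and 6 higher and 12 lower at 24 h, and in KO the counts were 2 and 4, 3 and 14, and 5 and 12. Rgs2, which shortens G protein signals, changed by -2.77, -4.71 and -4.69 in WT at 1, 4 and 24 h. Arrb1, an arrestin that helps take receptors off the surface, changed by -3.80 at 4 h in WT and -3.73 in KO. Rgs1 rose by 1.69 at 1 h in WT and fell by 2.31 at 24 h. For the mean KO/WT ratio over times, 1 gene of this list passed, Rgs1 at 0.48 (limma adjusted p = 0.0231), and 5 passed with the replicate block.

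The named genes whose pattern over the 16 channels was most like that of a member are given as a description, since all 16 channels share the times of LPS. The closest was Pim3 for Ccrl2 (Pearson's r = 0.988), followed by the immediate early genes Ier2 and Dusp2. For Cxcr4 they were Hdac5 (r = 0.994), Mxd4 and Coro1c, and for Cx3cr1 Cdkn1b (r = 0.974), Nsd1 and Crebrf. For Ccr7 they were Btla (r = 0.981), Fam107b and Purb, and for Cxcr5 Zfp296 (r = 0.981), Cd69 and Siah2. Btla is an inhibitory receptor of lymphocytes and Cd69 an early activation marker of them. For Ccr1 they were its relative Ccr1l1 (r = 0.963), AU040320 and Dock4, for Ccr2 Pglyrp1 (r = 0.957), Tulp4 and Cped1, and for Ccr3 Aifm1 (r = 0.923), Tuba1a and Armt1. The macrophages themselves changed over the same times. Of 8 markers of large peritoneal macrophages, the main resident type, 6 were lower at 4 h and 7 at 24 h in WT, and 5 and 7 were lower in KO, with Vsig4 changed by -8.04 in WT and -8.54 in KO at 24 h. Of 7 markers of macrophages, 4 were lower and 1 higher after 4 h in each genotype, the last being Cd14 at 1.52 in WT and 1.93 in KO. After 24 h 4 were lower in each genotype and 2 higher in WT and 1 in KO, with Fcgr1 up by 3.42 and 2.80. The part of these changes in the receptor levels was not tested.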

How the data were processed

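RNA of WT and KO peritoneal macrophages was hybridized in pairs to 8 Agilent 2-colour arrays. The authors deposited scanner files that hold the raw red and green intensity of every spot (Agilent Feature Extraction 10.7.3, per the submitters' processing notes), and a matrix of normalized log2 ratios of Cy5 to Cy3, which served here as an alternative (r from 0.989 to 0.996 with the ratios computed here). Raw median intensities were background-corrected (normexp, offset 50) and normalized by loess within and quantiles between arrays in limma 3.58.1 (R 4.3.3), and outlier spots were left out. The filter of the study, a mean log2 intensity of at least 6, left 36947 of 37018 genes and transcripts, and all 9 receptors passed it. Probes were named through RefSeq identifiers.

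KO/WT ratios of the 8 arrays were fitted with one coefficient per time (lmFit, eBayes; 4 residual degrees of freedom). LPS changes were fitted on the 16 channels by the separate-channel method (statmod 1.5.0, within-spot correlation 0.0871). P-values were adjusted by Benjamini-Hochberg over all features tested (36927 for LPS), at a threshold of 0.05. Same-numbered replicates deviated together between times (r from 0.475 to 0.679 over 6 pairs of times for the ratio, 0.129 to 0.253 for the level), so the fit with a replicate block is given where it changes a call of a receptor, and for the gene lists in the KO/WT comparisons. All arrays shared 1 slide and scan. Alternatives were other background corrections, normalizations, filters and probe rules, the deposited matrix, the methods' t-test and leaving out each array. The fits were tested on simulated data. The receptors and gene lists, and the rule for other genes (at most 4 per list and comparison, by size of change), were chosen with earlier results of these data known. Neighbours of the receptors and the 3 genes most alike to each are named as well. The responses to LPS of the markers of T and NK cells, mast cells, and mesothelial and stromal cells are given among the other observations. Values of some listed genes are not reported here.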

Additional observations from a re-analysis of the deposited data

How the results depend on the processing

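The counts of members past the threshold were recomputed under each alternative. With the replicate block, 1 member was called between KO and WT in untreated cells and 3 for the mean over times, where the fit without it called 0. With the software's processed signals, 3 members were called at 24 h in WT and 3 in KO instead of 6 and 6. Under that setting only 5 members could be tested (Ccr1, Ccr7, Ccrl2, Cxcr4 and Cxcr5). With 1 array left out in turn, the count at 1 h of LPS in KO lay between 2 and 4 (2 without untreated replicate 1), and no member was called between KO and WT. All other counts moved by no more than 1.5 times, and no called value changed its sign under any alternative. The block lost no call of a single member. Ratios rest on 2 arrays a time, and Ccr2, Ccr3, Cx3cr1 and Cxcr2 lie near the background, where a change is a bound, rests on part of the arrays or is not measured.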

Other observations

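Markers of other cells that a peritoneal lavage can hold also changed with LPS. Of 8 markers of mast cells, 5 were lower and 1 higher at 24 h in each genotype (limma adjusted p under 0.05), and their median log2 change was -1.60 in WT and -1.38 in KO. Of 8 measured markers of T and NK cells, 1 was higher and 2 lower at 24 h in WT, and 1 higher and 3 lower in KO. Of 8 markers of mesothelial and stromal cells, 1 was higher and 0 lower at 24 h in each genotype.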
